A study of Mus musculus with 9 samples.

Results

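The GABA A receptor subunit genes Gabra2, Gabra3, Gabra4, Gabra5, Gabrb1, Gabrb2 and Gabrd were followed in the hippocampus of mice with different levels of IF1 in neurons, with Gabra2 set against the other members of its family. They were chosen by gene name, and every probe carrying one of these names was used. These 7 genes have 11 probes on the array, out of 39429 probes in all, and all 11 passed the filter on dim probes, which kept 27991 probes with 21905 gene names (signal well above background in every mouse of 1 genotype or more). Gabrb1 has 3 probes, Gabra2 and Gabra3 have 2 probes each, and each of the remaining genes has 1 probe. All 11 were well above background on all 9 arrays.

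GABA A receptors are chloride channels of the neuronal membrane, built from 5 subunits around a central pore and opened by gamma-aminobutyric acid (GABA), the main inhibitory transmitter of the brain. The common receptor holds alpha and beta subunits with a gamma subunit. GABA binds between alpha and beta, benzodiazepines bind between alpha and gamma, and the alpha subunit largely sets where on the neuron the receptor sits and how it responds to drugs. The alpha 2 subunit, encoded by Gabra2, is prominent in the hippocampus, including at synapses on the axon initial segment of pyramidal cells. Alpha 5 and delta subunits are known for tonic, extrasynaptic inhibition in pyramidal cells and dentate granule cells, respectively.

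RNA came from 9 mice, 3 each of the genotypes IF1-KO, CRL (controls) and IF1-TG, all male, 9 months old and of strain C57BL/6J according to the labels, with 1 single-colour Agilent array per mouse. IF1 is the inhibitor protein of the mitochondrial ATP synthase, and the series asks how its dose in neurons affects gene expression. In IF1-KO mice, exon 3 of the floxed gene of IF1 (Atp5if1, named Atpif1 on the array) is deleted by Cre under the Camk2a promoter (line T29-1). The floxed allele descends from a C57BL/6NTac line crossed with a Flp deleter line on a B6;SJL background. In IF1-TG mice, human IF1 under a tetracycline-regulated element (a B6.CBA line) is driven by the transactivator tTA under the Camk2a promoter (a B6;CBA line). The Camk2a promoter acts mostly in forebrain excitatory neurons after birth, so interneurons, glia and vessels are not targeted, and the lines were maintained on C57BL/6J. The transgenes carried by the CRL mice of the arrays are not given in the sources used here.

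The values below are log2 signals from which the 75th percentile of all probes on that array was subtracted, so that 0 is the 75th percentile, and a difference of 1 is a doubling. Signals of different probes cannot be compared as levels, and only the same probe is compared between genotypes. All 3 genotypes shared slide 2 (IF1-KO replicate 1, CRL replicates 1 and 2, IF1-TG replicate 3), whereas slide 1 carried only IF1-TG arrays and slide 3 only the remaining IF1-KO and CRL arrays. Between 71.2% and 73.0% of probes were well above background on IF1-KO arrays, between 72.4% and 74.9% on CRL arrays and between 66.7% and 69.7% on IF1-TG arrays. The Atpif1 probe read 6.43 on the array labelled IF1-KO replicate 1, against 5.20 and 5.53 on the other IF1-KO arrays and 6.19 to 6.34 on the CRL arrays. It read 6.38 to 6.51 on the IF1-TG arrays, and whether this mouse probe reads the human transgene was not tested. The array labelled IF1-KO replicate 1 thus lacked the lower reading of the other IF1-KO arrays. The position of the probe relative to the deleted exon was not determined, so whether this reading goes against the label is not known, and values are also given without that array. Whole hippocampus was measured, so that fewer cells expressing a gene and less RNA per cell cannot be told apart.

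Both Gabra2 probes lie on chromosome 5, on the minus strand. In mm9, the build of the deposited annotation, the brighter probe (A_55_P2177351, transcript NM_008066) covers chr5:71352306-71352365 and the dimmer probe (A_55_P2027900, transcript XM_006503733) covers chr5:71352276-71352334. They overlap by 29 bases, and no other probe of the array holds that run. The shared run is shown because it means that both probes read partly the same stretch of Gabra2 RNA and are not independent measurements (chr5:71352306-71352334, mm9, minus strand, 5′ to 3′).
Gabra2 shared probe run: tcagctcacttcaatcattggaaactacc

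Gabra2 was higher in the hippocampus of IF1-TG mice than in either of the other genotypes. The brighter probe read 0.34, 0.66 and 0.72 on the IF1-TG arrays, -0.11, -0.45 and -0.51 on the CRL arrays, and -0.28, -0.87 and -0.33 on the IF1-KO arrays in replicate order. The 3 IF1-TG arrays lay above each of the other 6 arrays, while IF1-KO and CRL arrays overlapped. IF1-TG exceeded IF1-KO by 1.07 (standard error 0.20, 95% interval 0.61 to 1.52), a 2.09-fold difference in signal. Against CRL the difference was 0.93 (standard error 0.20, 95% interval 0.48 to 1.39), or 1.91-fold. A probe was called when it differed by at least 1.5-fold with an unadjusted P value below 0.05 in the limma fit of all 9 arrays, the thresholds of the study's methods. The brighter Gabra2 probe passed in both comparisons (unadjusted P = 0.000558 and 0.00135), but its Benjamini-Hochberg adjusted P values over all probes were 0.504 and 0.365.

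The dimmer probe followed the same order. It read -0.52, -0.04 and -0.11 on the IF1-TG arrays, -1.37, -1.19 and -1.48 on the CRL arrays, and -1.27, -2.55 and -1.27 on the IF1-KO arrays. All 3 IF1-TG arrays were again above the other 6, and IF1-KO replicate 2 stood lowest on both probes. IF1-TG exceeded IF1-KO by 1.47 (standard error 0.33, unadjusted P = 0.00181, limma adjusted P = 0.66) and CRL by 1.12 (standard error 0.33, unadjusted P = 0.00854, limma adjusted P = 0.467). Over 9 arrays, both Gabra2 probes were correlated with r = 0.95, as a description of readings that share sequence and arrays.

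Of the 11 probes, 2 were called higher and 0 lower when IF1-TG was compared with IF1-KO, and both were Gabra2. Over all 27991 probes, 3.77% were called in this comparison, with 1.73% higher and 2.05% lower, and on 8.38% the IF1-TG arrays were all higher than those of IF1-KO. For IF1-TG against CRL, 2 probes were called higher and 0 lower, again both of Gabra2, where 4.47% of all probes were called (2.24% higher, 2.22% lower) and 6.88% had all IF1-TG arrays above the CRL arrays. Between IF1-KO and CRL mice, 0 of 11 were called, against 1.06% of all probes (0.429% lower). By unadjusted limma P value below 0.05 alone, 0 of 11 passed, against 718 of the 27991 probes. The 2 Gabra2 probes were among the 919 probes (3.28%) on which all 3 IF1-TG arrays exceeded all of the others. The brighter probe held rank 103 by size of increase and rank 31 by P value between IF1-TG and IF1-KO, so that Gabra2 is 1 of many probes with a difference of this kind.

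**Figure D1:**
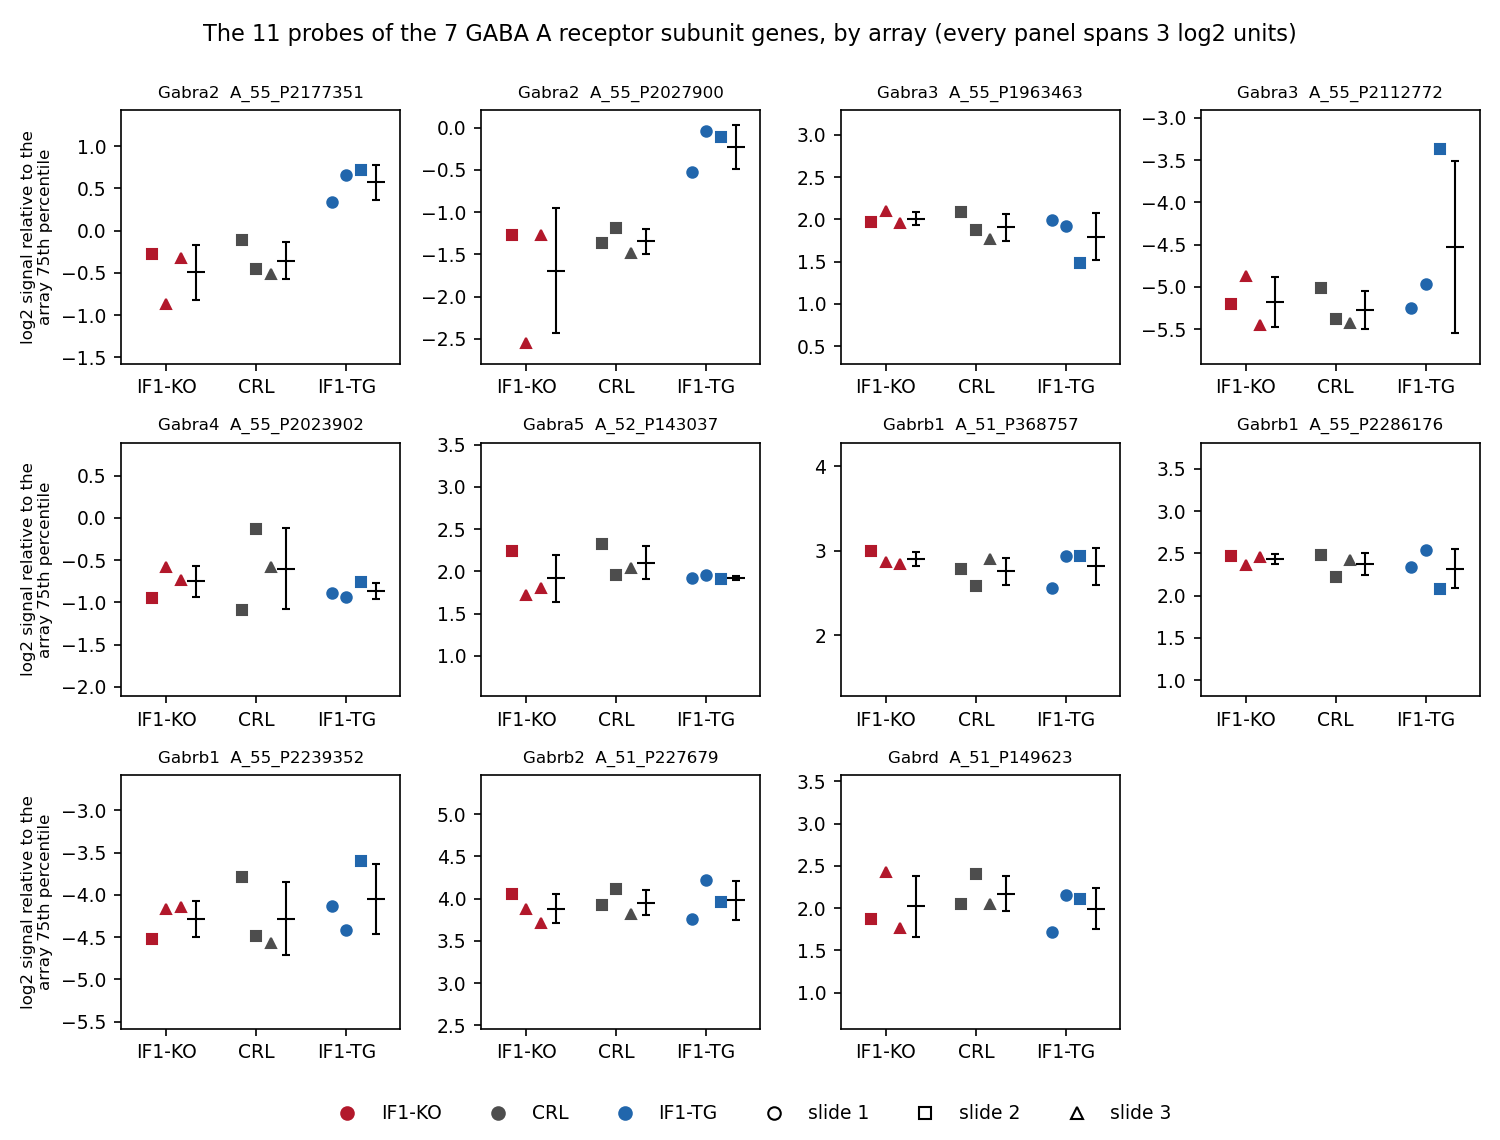
Signal of each of the 11 probes on each array, as log2 signal minus the array's 75th percentile, by genotype; marker shapes give the slide, and the bars beside the points are mean ± SD of 3 arrays. On both Gabra2 probes the 3 IF1-TG arrays sit above the other 6, while on the other 9 probes the IF1-TG arrays overlap those of both other genotypes.

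The loss of IF1 left no called difference in Gabra2. IF1-KO minus CRL was -0.13 on the brighter probe (standard error 0.20, 95% interval -0.59 to 0.32) and -0.35 on the dimmer probe (standard error 0.33, 95% interval -1.10 to 0.40). These intervals still hold decreases of more than 1.5-fold. Leaving out IF1-KO replicate 2, the lowest array, turned both values to 0.05 and 0.08. Leaving out the array labelled IF1-KO replicate 1 moved them to -0.24 and -0.56, and moved the brighter probe's difference between IF1-TG and IF1-KO to 1.17. The call of both Gabra2 probes between IF1-TG and IF1-KO held with either array left out.

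The increase was also present within the only slide that held all 3 genotypes. On slide 2, IF1-TG replicate 3 read 0.72 on the brighter probe against -0.28 on the array labelled IF1-KO replicate 1 and a CRL mean of -0.28, a difference of 1.00 from each. For the dimmer probe these differences were 1.16 and 1.17. With slide as a fixed block, IF1-TG minus CRL was 0.99 on the brighter probe and 1.10 on the dimmer probe, where the unadjusted limma P value rose to 0.0664, past the threshold. Since slide 1 held IF1-TG arrays alone, this fit rests largely on 1 IF1-TG array.

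Among the other alpha subunits, the genotypes overlapped. Gabra4, whose subunit pairs with delta in extrasynaptic receptors of the dentate gyrus, read -0.89, -0.94 and -0.75 on IF1-TG arrays, -1.09, -0.13 and -0.58 on CRL arrays and -0.94, -0.58 and -0.73 on IF1-KO arrays. CRL arrays spread widest here, and IF1-TG minus IF1-KO was -0.11 (standard error 0.23, 95% interval -0.63 to 0.41). Gabra5, encoding the alpha subunit of tonic inhibition in pyramidal cells, read 1.92, 1.95 and 1.91 on IF1-TG arrays, 2.32, 1.95 and 2.03 on CRL arrays and 2.24, 1.72 and 1.80 on IF1-KO arrays. Its difference between IF1-TG and IF1-KO was 0.01 (standard error 0.16, 95% interval -0.36 to 0.38), an interval that excludes a 1.5-fold change.

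Gabra3, on chromosome X, encodes an alpha subunit better known from the cortex and monoaminergic nuclei. Its brighter probe (A_55_P1963463) read 1.99, 1.92 and 1.48 on IF1-TG arrays, 2.08, 1.87 and 1.77 on CRL arrays and 1.97, 2.10 and 1.96 on IF1-KO arrays. The lowest of these was IF1-TG replicate 3, and IF1-TG minus IF1-KO was -0.21 (standard error 0.16). The dim Gabra3 probe (A_55_P2112772) behaved differently on that array: it read -3.37 there, against -5.45 to -4.87 on the other 8 arrays. Its difference from IF1-KO was 0.65 (standard error 0.44, 95% interval -0.35 to 1.65) and fell to 0.07 without IF1-TG replicate 3, while leaving out IF1-TG replicate 1 brought it to 1.01 and past the thresholds (limma, unadjusted P = 0.0465). The 2 Gabra3 probes thus disagreed, and the dim one rested on a single array.

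The beta subunits, which carry the other face of the GABA site, gave no call. Gabrb2 (A_51_P227679) read 3.76, 4.22 and 3.96 on IF1-TG arrays, 3.92, 4.11 and 3.82 on CRL arrays and 4.06, 3.88 and 3.71 on IF1-KO arrays. IF1-TG minus IF1-KO was 0.10 (standard error 0.16, 95% interval -0.26 to 0.46). The brightest Gabrb1 probe (A_51_P368757) read 2.56, 2.93 and 2.94 on IF1-TG arrays, 2.79, 2.59 and 2.90 on CRL arrays and 2.99, 2.87 and 2.84 on IF1-KO arrays. All genotypes overlapped, and IF1-TG minus IF1-KO was -0.09 (standard error 0.14, 95% interval -0.42 to 0.24). The second Gabrb1 probe (A_55_P2286176) gave -0.11 and the dimmest one (A_55_P2239352) gave 0.23 (standard error 0.27).

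Gabrd encodes the delta subunit, which takes the place of gamma in extrasynaptic receptors. It read 1.72, 2.16 and 2.11 on IF1-TG arrays, 2.05, 2.41 and 2.05 on CRL arrays and 1.87, 2.43 and 1.76 on IF1-KO arrays. The genotypes overlapped, with IF1-TG minus IF1-KO at -0.03 (standard error 0.21, 95% interval -0.51 to 0.46). Across the 9 probes outside Gabra2, differences between IF1-TG and IF1-KO had a median of -0.03, beside 0.01 over all probes, and the smallest unadjusted P value was 0.175. For IF1-TG minus CRL they ranged from -0.26 to 0.75 with a median of -0.06. For IF1-KO minus CRL they ranged from -0.19 to 0.14.

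**Figure D2:**
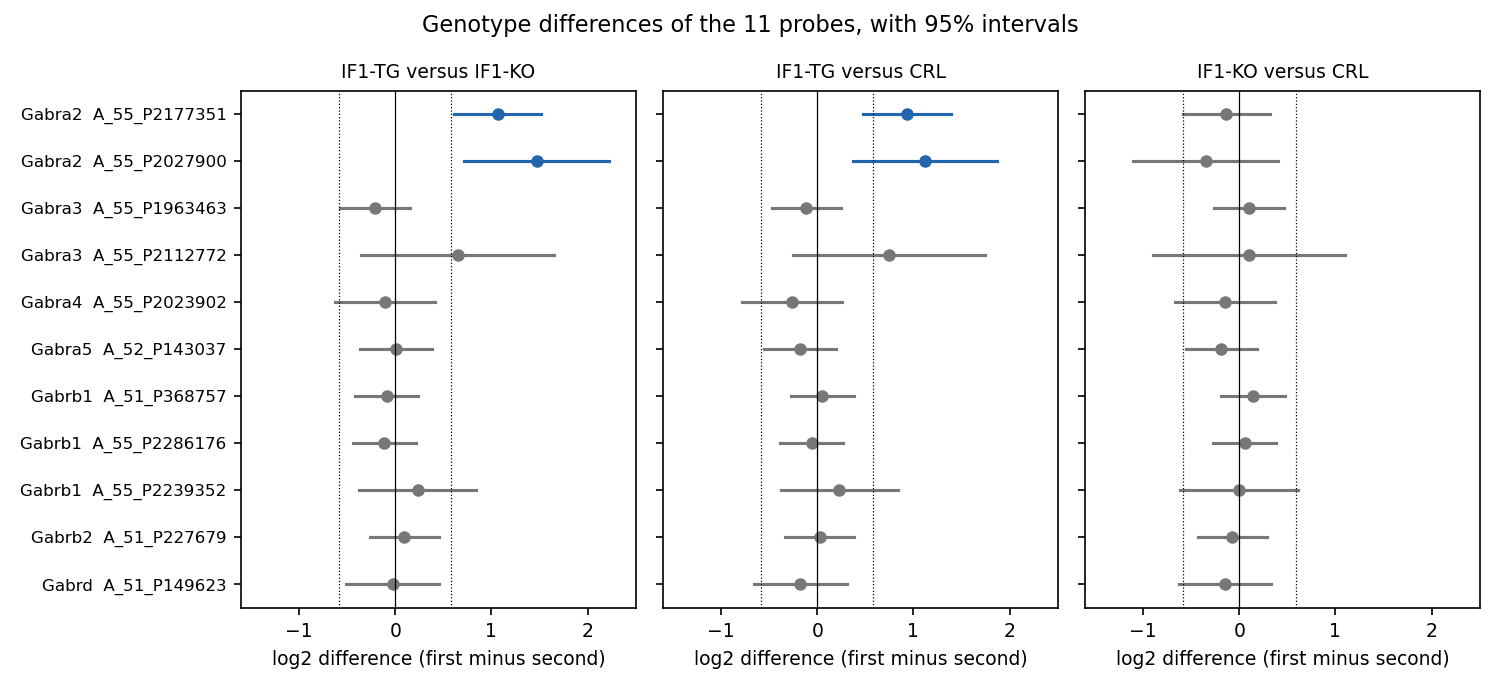
Log2 difference between genotypes for each of the 11 probes (points) with 95% limma intervals (lines); dotted lines mark 1.5-fold, and blue marks a called probe. Only the 2 Gabra2 probes are called, in both comparisons that involve IF1-TG, with differences from 0.93 to 1.47.

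Gabra2 was then set against its relatives as the log2 ratio of the brightest Gabra2 probe to the brightest probe of each other gene on the same array, which removes any scaling of the whole array. Gabra2 was singled out with its result known and its IF1-TG arrays already lay above the rest, so the ratios are a description and no P value is given. The ratio to Gabrb1, whose gene lies in the same cluster, was -2.23, -2.27 and -2.22 on IF1-TG arrays and -3.74 to -2.90 on the other 6. The mean of the IF1-TG arrays exceeded that of the rest by 1.02. The ratio to Gabra4 was 1.23, 1.60 and 1.47 on IF1-TG arrays and -0.33 to 0.98 on the others, a difference of 1.18. The closest approach of the groups was here, between IF1-TG replicate 1 and CRL replicate 1.

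All of the other ratios also kept the IF1-TG arrays apart from the remaining arrays. The difference was 1.16 for Gabra3, 1.08 for Gabra5, 0.94 for Gabrb2 and 1.10 for Gabrd. These 6 ratios share the Gabra2 values. Between single pairs of genotypes, IF1-TG did not overlap IF1-KO or CRL on any of the ratios, and IF1-KO and CRL overlapped on all of them. Within slide 2 the differences ran from 0.85 (Gabrb1) to 1.49 (Gabra3).

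**Figure D3:**
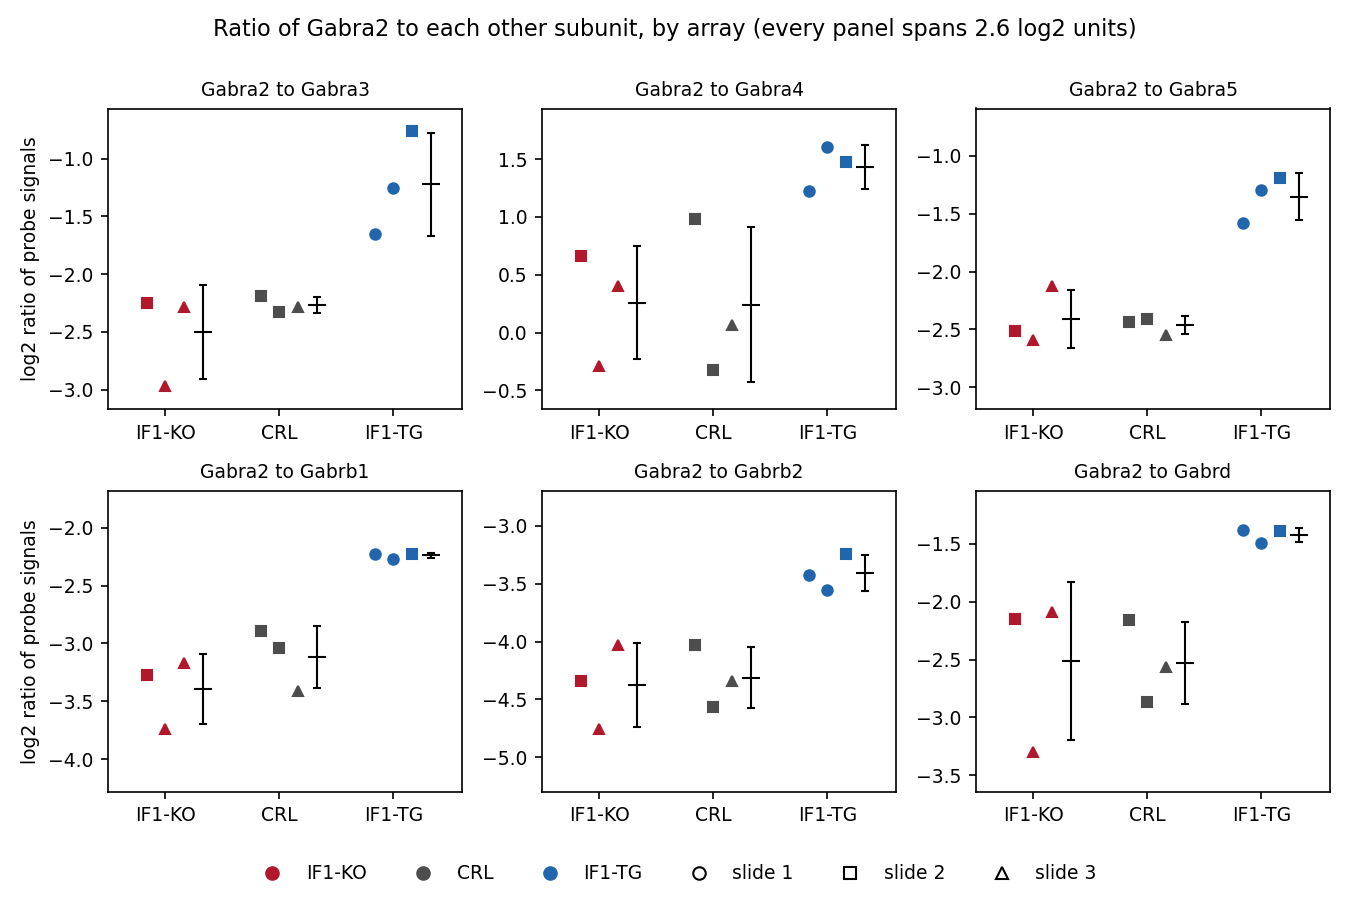
Log2 ratio of the Gabra2 signal to that of each other subunit gene on the same array, by genotype; marker shapes give the slide, and bars are mean ± SD of 3 arrays. In each panel the IF1-TG arrays lie above the other 6, with the narrowest gap for Gabra4 (1.23 against 0.98).

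Gabra2 lies in a cluster of receptor genes on chromosome 5 with Gabrg1 on one side and Gabra4 and Gabrb1 on the other, so its neighbours were examined. Within 2 Mb, 22 kept probes with 16 names lie around Gabra2. Of these 22, 1 was called higher and 0 lower for IF1-TG against IF1-KO, beside 3.77% called over all probes, with a median difference of 0.04. The called probe has no gene name in the deposited annotation (A_55_P2118740, chr5:72439231-72439290, 1.09 Mb away). It differed by 0.80 (standard error 0.23) from IF1-KO and by 0.90 (standard error 0.23) from CRL. Against CRL, too, 1 probe was called higher and 0 lower, beside 4.47% called over all probes. These counts do not set the window apart from all probes.

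No probe named for the relatives of Gabra2 in this window was called. Gabrg1 encodes a gamma subunit and is the nearest of them, on the side away from Gabra4 and the called probe. Its brighter probe (0.21 Mb) gave 0.10 for IF1-TG minus IF1-KO (standard error 0.15) and -0.05 against CRL. A dimmer Gabrg1 probe (0.18 Mb) gave -0.20 and -0.44. The Gabra4 probe lies 0.61 Mb away, between Gabra2 and the called probe, and the Gabrb1 probes lie beyond the called probe (1.18 to 1.19 Mb), all with the values above. These are distances of probes, and the Gabrb1 start is only 387 bases from that of Gabra4. The span of the Gabrb1 gene in mm9 was not determined, so the called probe may lie within it. Zar1 (1.62 Mb) had the highest value in the window beside Gabra2, 1.08 with a standard error of 0.48, and did not pass (limma, unadjusted P = 0.0543). Between IF1-KO and CRL, Gm5868 (1.62 Mb) was lower by the thresholds, with -1.22 (standard error 0.49), and this call was lost on leaving out any of the IF1-KO arrays or CRL replicate 3.

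**Figure D4:**
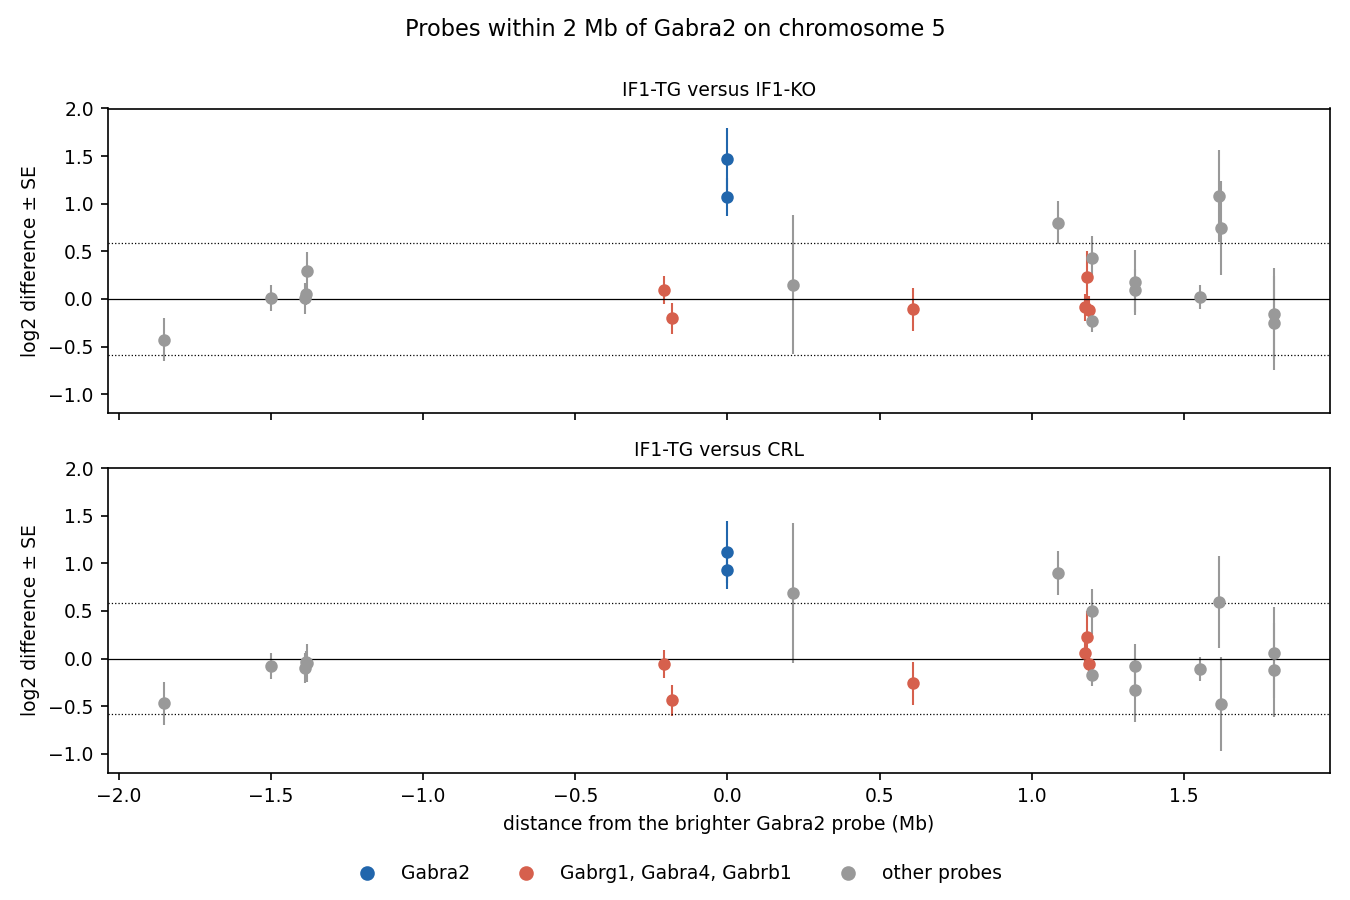
Log2 difference ± standard error for each kept probe within 2 Mb of Gabra2, against its distance from the brighter Gabra2 probe in Mb; dotted lines mark 1.5-fold, blue is Gabra2 and red its relatives Gabrg1, Gabra4 and Gabrb1. Gabra2 stands at 1.07 and 1.47 (upper panel) and 0.93 and 1.12 (lower panel), while its relatives in the cluster lie between -0.44 and 0.23.

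The start of Gabra2 was set against that of Gabra4. In the RefSeq promoter windows (GRCm38.p6), which held 6 of the 7 genes, the Gabra2 and Gabra4 starts are 562459 bases apart, whereas those of Gabra4 and Gabrb1 face each other and are 387 bases apart. The 250 bases before the Gabra2 start are printed because Gabra2 is the gene of the family with the difference (chr5:71095850-71096099, GRCm38.p6, minus strand, 5′ to 3′). They hold 70% G and C.
Gabra2 upstream window: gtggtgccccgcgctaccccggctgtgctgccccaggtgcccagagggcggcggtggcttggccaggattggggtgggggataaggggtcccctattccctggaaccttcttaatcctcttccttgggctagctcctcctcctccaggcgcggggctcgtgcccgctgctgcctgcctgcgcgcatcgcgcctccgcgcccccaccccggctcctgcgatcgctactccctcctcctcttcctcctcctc
Of the letters searched on both strands, the cAMP response element TGACGTCA is in 1.55% of 32851 such windows and the TATA motif TATAAA in 12.4%. Neither is in the Gabra2 window, and windows of Gabrb2 and Gabra3 have the TATA letters.

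The remaining GABA A receptor subunits were read as a group. Of 12 other subunit genes, 9 had kept probes (14 probes). Called between IF1-TG and IF1-KO were 0 of 9 genes, with a median of 0.00 over their brightest probes and a range of -0.32 to 0.19. Against CRL, the brightest probes of the 9 genes ranged from -0.84 to 0.06, and none of these was called. Gabra6, Gabrq and Gabrp, for which the array has probes, had none kept.

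Genes for the synthesis, transport and breakdown of GABA, 7 in all and all kept, had 0 calls between IF1-TG and IF1-KO. A dim probe of Abat, the transaminase that breaks GABA down, was called lower than in CRL mice, by -0.68 in IF1-TG and -1.06 in IF1-KO mice. The bright Abat probe gave 0.08 and -0.04 in the same comparisons and was not called. The 15 genes of receptor scaffolds and trafficking had 1 gene called higher, for IF1-TG against IF1-KO. It was Trak2, a motor adaptor for mitochondria and receptor cargo, by 0.71 on its dimmer probe and 0.03 on its brighter probe. Of their brightest probes, 11 of 15 lay above 0 in each comparison with IF1-TG, with medians of 0.12 against IF1-KO and 0.10 against CRL, beside 0.01 and 0.00 over all probes. Among the 2 subunits of the GABA B receptor, the G protein coupled receptor of GABA, Gabbr2 was called higher in IF1-TG against IF1-KO by 0.73 (standard error 0.26, limma, unadjusted P = 0.0219), where its other kept probes gave 0.08 and -0.28. Against CRL the same probe gave 0.59 and was not called (limma, unadjusted P = 0.0521). The chloride transporters Slc12a5 and Slc12a2, which set the driving force of the receptor, had 0 calls.

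**Figure D5:**
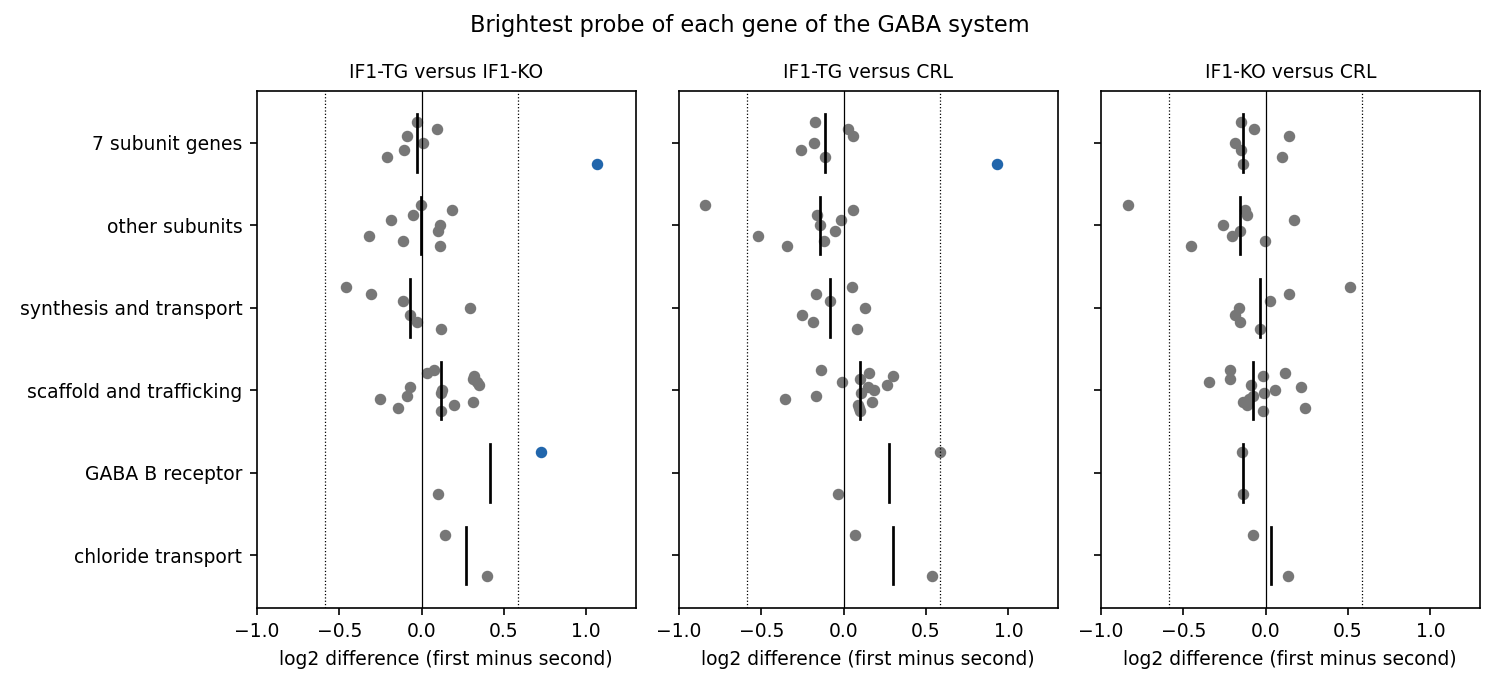
Log2 difference between genotypes for the brightest probe of each kept gene, by group of genes of the GABA system; vertical bars are group medians, dotted lines mark 1.5-fold and blue marks a called gene. Gabra2 stands apart from the other 6 genes of its row in both comparisons with IF1-TG, at 1.07 and 0.93, and Gabbr2 (0.73, against IF1-KO) is the other called brightest probe.

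Markers of the cell types that carry these receptors were read beside Gabra2. Excitatory neuron markers had 0 of 5 genes called in any comparison, and CA1 and CA3 markers also had 0 called. Interneuron markers had 1 of 10 genes called, Pvalb, lower in IF1-TG than in CRL mice by -0.65 on a dimmer probe, while its brighter probe gave 0.09. Of 5 dentate granule cell markers, Trpc6 was called lower in IF1-TG than in CRL mice, by -0.80. Against CRL the 5 had a median of -0.63, with 1 above 0, and C1ql2 (-0.85), Dsp (-0.63) and Prox1 (-0.39) were not called. Their summed signal, as a multiple of the array's 75th percentile, was 1.20 to 1.86 on IF1-TG arrays, 2.11 to 2.69 on CRL arrays and 1.24 to 2.17 on IF1-KO arrays, so that IF1-TG did not overlap CRL but overlapped IF1-KO. Of 5 astrocyte markers, Aqp4 was called higher in IF1-TG against IF1-KO mice by 0.79 on its dimmer probe, while its brighter probe gave 0.40 and was not called. Oligodendrocyte and microglia markers, 6 genes each, had 0 called. The summed oligodendrocyte signal was 117.4 to 145.2 times the 75th percentile on IF1-TG arrays, 107.5 to 139.9 on CRL arrays and 80.0 to 117.3 on IF1-KO arrays, so that the lowest IF1-TG array lay just above the highest IF1-KO array. Over the brightest probes of the 6 oligodendrocyte genes, IF1-TG differed from IF1-KO by a median of 0.26, with 4 above 0. Against CRL the median was -0.01, with 3 above 0. Cnp, an enzyme of myelin, had the largest of these differences, 0.49 and 0.45 against IF1-KO and CRL (limma, unadjusted P = 0.0055 and 0.00888). It stayed below the 1.5-fold threshold and was not called. The summed microglia signal was 26.1 to 29.1 on IF1-TG, 25.4 to 27.1 on CRL and 21.4 to 24.4 on IF1-KO arrays, with IF1-TG above IF1-KO and overlapping CRL. These markers were measured in the same RNA, and their part in the Gabra2 difference was not tested.

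Neighbouring tissue differed between arrays as well. The summed signal of 5 choroid plexus markers, as a multiple of the 75th percentile, ranged from 4.67 to 177 on IF1-TG arrays, from 2.87 to 117 on CRL arrays and from 1.94 to 95.0 on IF1-KO arrays, with 0 genes called. All 5 had a positive difference between IF1-TG and IF1-KO, with a median of 0.87. For 5 thalamus markers it ranged from 2.52 to 4.69 on IF1-TG, 2.37 to 3.14 on CRL and 2.01 to 2.68 on IF1-KO arrays, with Lef1 and 1 of the Tcf7l2 probes called higher in IF1-TG than in CRL mice. That Tcf7l2 probe was also called against IF1-KO (1.34, and 1.11 against CRL), whereas the other Tcf7l2 probe gave 0.06 and 0.30 and was not called. For 7 striatum markers it ranged from 9.92 to 14.6 on IF1-TG, 13.0 to 22.5 on CRL and 11.8 to 13.1 on IF1-KO arrays. None of the 7 lay above CRL in IF1-TG (median -0.39) or IF1-KO mice (median -0.41), and Adora2a was called lower than in CRL mice in both IF1-TG (-0.96) and IF1-KO mice (-1.16). The part of these markers in the Gabra2 difference was not tested.

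C57BL/6J mice are known to carry a deletion within an intron of Gabra2 that lowers its RNA in brain, which most other strains lack, and the lines crossed here came from different backgrounds. Genes that can differ in RNA between C57BL/6 substrains were therefore read beside it, 6 of 7 with kept probes. Ide read 0.55, 0.27 and 0.42 on IF1-TG arrays against -0.41 to -0.13 on the other 6, and Entpd4 read 2.34 to 2.97 against 3.15 to 3.56. On both genes, as on Gabra2, no IF1-TG array fell within the range of the rest. Wdfy1 read 0.61 to 0.64 on IF1-TG, 0.69 to 1.35 on CRL and -0.69 to -0.44 on IF1-KO arrays, separating IF1-KO instead. Genotype and strain background cannot be told apart in this design, and the Gabra2 deletion itself was not tested.

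The genes whose pattern over the 9 arrays was most like the brighter Gabra2 probe were Zfp462 (Pearson r = 0.98), Pde1a (0.97), N4bp2 (0.96), C430003N24Rik (0.95) and Rac1 (0.95). Pde1a, a calmodulin-dependent phosphodiesterase, was higher in IF1-TG mice, by 0.66 against IF1-KO and by 0.78 against CRL. N4bp2 and Rac1 lie on chromosome 5 like Gabra2, and the other 3 genes on chromosomes 4, 2 and 10. The sizes differed, since Rac1 differed by only 0.14 between IF1-TG and IF1-KO arrays. These are the 5 genes outside the 7 members with the highest correlation, over 9 arrays that share slides and genotypes, and are given as a description.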

How the data were processed

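Gene expression was measured in hippocampal RNA of 9 mice, 3 per genotype. The authors deposited spot intensities from Agilent Feature Extraction 10.7.3.1, with background and spatial trends removed within each array and no normalization between arrays, and the deposited marks for spots well above background, saturated or outlying were used as other values. No spot was saturated. From log2 intensity the array's 75th percentile was subtracted, without control and outlier spots, and a probe was kept when every array of 1 genotype or more marked it well above background. All 9 arrays entered a limma 3.58.1 fit (R 4.3.3, eBayes), with Benjamini-Hochberg adjustment over all kept probes and a call at a fold change of at least 1.5 with unadjusted P below 0.05. The model was tested on simulated data. Replicates are separate mice, so P values measure the spread between 3 mice per genotype, and the number of arrays limits the precision. Exact permutations of the ratios (scipy 1.17.1) were planned and run, but their P values are not given, since Gabra2 was singled out with its result known. Alternatives were normexp (offset 50) with quantile normalization, quantile normalization, no or a stricter filter, slide as fixed or random block, replicate block, fits of only the 2 genotypes compared, trend and robust eBayes, the mean of a gene's probes, and each array left out.

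Replicate numbers did not pair the arrays: the deviations of same-numbered arrays from their genotype means correlated at -0.17 to 0.12. The genes named are Atpif1, every probe of the members, called genes of the lists (some are not reported here), probes near Gabra2 that were called or belong to the family, the 5 most similar patterns, and substrain genes. Members and lists were chosen with earlier results of these data known. Zar1, the chloride transporters, some uncalled subunits and some uncalled cell type markers such as Cnp were added to the names with their values in view. Positions are mm9, and promoter windows are RefSeq GRCm38.p6.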

Additional observations from a re-analysis of the deposited data

How the results depend on the processing

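Both Gabra2 probes kept their direction and call against IF1-KO and CRL in 18 alternatives, except the dimmer probe against CRL with slide as a fixed block (1.10, limma, unadjusted P = 0.0664). Leaving out each array in turn gave 0.88 to 1.18 for the brighter probe against IF1-KO and 1.04 to 1.68 for the dimmer one. Replicate numbers did not pair the arrays, and the replicate block left the brighter probe at 1.07 and 0.93 (limma, unadjusted P = 0.00190 and 0.00380) and changed no call of the 11 probes. The dim Gabra3 probe passed the thresholds with slide as a fixed block (1.74 against IF1-KO, 1.88 against CRL) and without IF1-TG replicate 1 (1.01 and 1.11). With each array left out, the ratio of Gabra2 to Gabra4 ran from 1.07 to 1.33 (1.10 without IF1-TG replicate 2) and to Gabrd from 0.94 to 1.19 (1.08 without IF1-TG replicate 1 or 3). Within slide 2 the ratios to Gabra3 and Gabra5 differed by 1.49 and 1.26.

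Counts for other subunits and GABA pathway genes were less stable. They were 2 (IF1-TG against IF1-KO), 2 (IF1-TG against CRL) and 1 (IF1-KO against CRL), and all became 0 with normexp and quantile normalization. The first fell to 1 without a filter, with slide as a random block, with only the 2 genotypes compared, and without any single CRL array or IF1-TG replicate 1 or 3. Its lowest value, 0, came without IF1-KO replicate 2, and its highest, 4, when IF1-TG replicate 2 was dropped. The second was 1 with quantile normalization, 0 without CRL replicate 1 and 4 without IF1-TG replicate 2. The last was 0 with the stricter filter, 2 with the replicate block, and ran from 1 to 3 with arrays left out, the highest without IF1-KO replicate 1 or CRL replicate 3. Counts near Gabra2 on chromosome 5 were 1 in each comparison. Against IF1-KO this became 2 without IF1-TG replicate 3. Against CRL it became 2 with slide as a fixed block and ran from 1 to 3, the highest without IF1-TG replicate 2 or 3. Between IF1-KO and CRL it was 0 with normexp and quantile normalization, with the replicate block, and without any IF1-KO array or CRL replicate 3. The cause of these changes was not tested. In all, 309 of 348 alternative values of the main results and 482 of 486 of single probes kept their direction and side of the thresholds, stayed within 1.5 times for counts, or within 1 SD for values without a test. The dimmest of the 11 probes, of Gabra3, also had the widest standard error (0.44).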
